A study of Mus musculus with 18 samples.

Results

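Pers2 and Pers1 are the 2 populations of CD4+ T cells with persistent Foxp3 expression that were sorted from Foxp3-Timer mice, and their transcriptomes were compared directly. Members were taken by population label: the 3 Pers2 libraries against the 3 Pers1 libraries, 6 of the 18 RNA-seq libraries of the series. Genes with a mean deposited value of at least 3 over the 18 libraries were tested, 13190 of 15402. No expression value of the comparison was used to choose the libraries.

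All libraries came from female C57/BL6 mice carrying Foxp3Timer and Foxp3-IRES-GFP, sensitised on the abdominal skin with 3% oxazolone, a contact allergen. Draining inguinal and axillary lymph nodes were taken on day 5, and each library was 1 of 3 pools of 3 mice. Mice sensitised in this way were 5 to 10 weeks old. Every group shared the sensitisation and both reporter alleles, so no unsensitised or reporter-free control entered any comparison. Pers1 cells were Blue-intermediate Red-low and Pers2 cells Blue-high Red-high for Timer fluorescence. The sample labels call the Pers1 libraries de novo expressers and the Pers2 libraries maturing expressers, whereas the design text of the series calls both persistent. Of the remaining libraries, PAt cells were Red-high with low blue fluorescence, Arrested cells had intermediate red and no blue fluorescence, and 2 groups were Timer-negative CD44hi effector (Teff) and CD44lo naive (Tnaive) cells, each population with 3 pools. Timer fluorescence, which reports Foxp3, set the gates of the Timer+ populations.

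Foxp3 is the transcription factor that defines regulatory T cells (Treg), which restrain immune responses. Fluorescent Timer protein is made in a short-lived blue form that matures into a long-lived red form, so blue fluorescence reports recent Foxp3 transcription and red fluorescence its accumulated history. Treg that have been activated acquire effector features, among them suppressive cytokines, coinhibitory receptors and tissue-homing receptors, and lose features of resting lymph node T cells.

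The deposited values are log2 read counts normalised between libraries, not divided by gene length, so levels were compared between libraries and not between genes. Sequencing depth is unknown because no counts were given, and weakly expressed genes appear drawn together, which understates their differences. The mean absolute difference per gene was 0.104 to 0.142 between libraries of the same population and 0.153 to 0.198 between a Pers1 and a Pers2 library, so no library was a copy of another or stood apart from its group. In bulk libraries, fewer cells of a type and less RNA per cell cannot be told apart.

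A gene was called when limma's adjusted p, by Benjamini-Hochberg over all tested genes, was under 0.05. Between Pers2 and Pers1, 1395 genes were called (10.6% of those tested), of which 794 (6.02%) were higher and 601 (4.56%) lower in Pers2. These shares by direction are the background for the counts of every gene list below. The lists were chosen with earlier results of these data known, so their counts describe these libraries and are no independent support. Most of these differences were small: 25 genes (0.19%) also differed by more than 1 on the log2 scale, 19 higher (0.144%) and 6 lower (0.0455%). The 6 libraries did not overlap for 4204 genes (31.9%; 16.8% higher and 15% lower in Pers2), and all 25 genes past the fold threshold were among them. The split by direction depended on scaling: with each library centred on its median, 1433 genes were called, 656 higher and 777 lower. The count fell to 883 without Pers1 pool 1, 741 without Pers1 pool 3 and 851 without Pers2 pool 2.

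**Figure D1:**
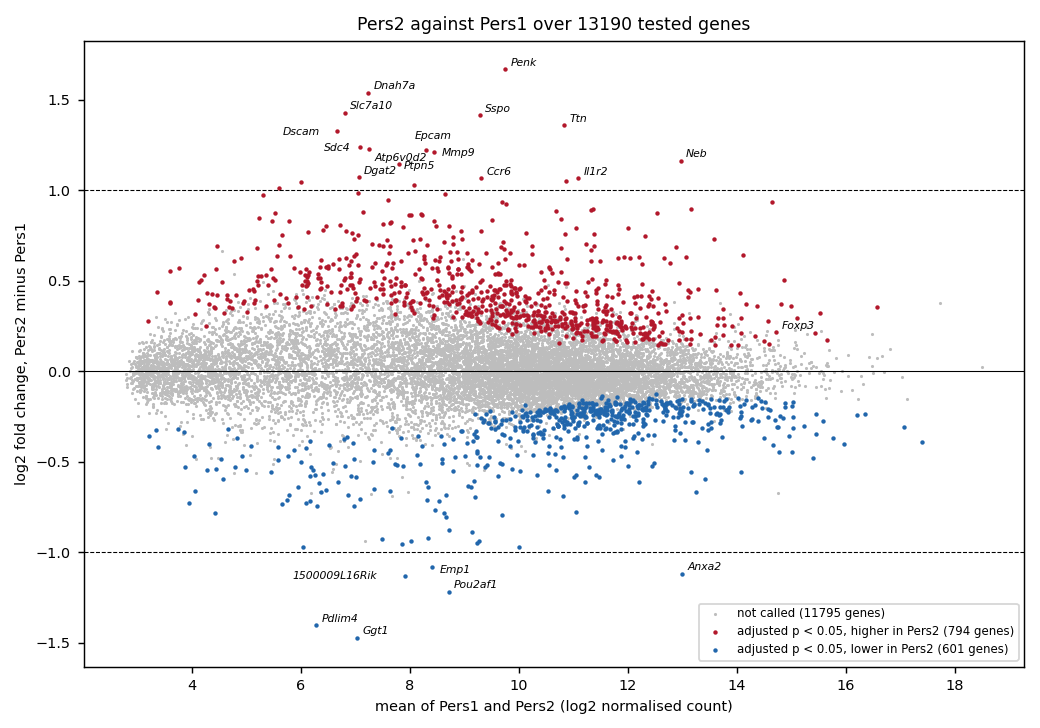
Difference between Pers2 and Pers1 (vertical axis, log2 fold change) against the mean of both populations (horizontal axis, log2 normalised count), one point per tested gene. Red points were called higher (794 genes) and blue points lower (601 genes) in Pers2, dashed lines mark a log2 fold change of 1 in either direction, and Penk, at 1.67, has the highest value.

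Foxp3 itself, on the X chromosome (mm10 chrX:7573644-7595245), was 14.68, 14.56 and 14.58 in the Pers1 pools and 14.85, 14.81 and 14.81 in the Pers2 pools. Every Pers2 library lay above every Pers1 library, which held for 16.8% of all tested genes. Pers2 cells were gated at higher blue and red fluorescence of the Foxp3 reporter, so this direction is not independent of the sort. The difference was only 0.22 ± 0.07 (log2 fold change ± SE, n = 3 and 3, adjusted p = 0.047 by limma). The call was lost whichever of the 6 libraries was left out, with differences between 0.19 and 0.25, and also with libraries centred on their medians (adjusted p = 0.064). PAt and Arrested libraries had means of 14.53 and 14.42, whereas Teff and Tnaive had 10.54 and 11.34. Genes annotated on the opposite strand at this locus include Ppp1r3f and Ccdc22, and whether strand was used in counting is not given in the sources used here. The same limit holds for 48 of the 122 named genes, among them Penk, Slc7a10, Ttn, Neb and Dscam.

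Because Cish and Socs2, both STAT5-induced feedback inhibitors, were among the Treg genes that rose together, the promoters of Treg identity genes were searched on both strands for the gamma-activated site to which STAT proteins bind, TTCNNNGAA. This motif was chosen after the values were seen. Promoters here are the 250 bases before a RefSeq transcription start on GRCm38.p6. Of the 25 Treg identity genes, 18 had promoters in the table, and 2 of these genes, Foxp3 and Tnfrsf18, held a match. Their sequences are shown, 5′ to 3′ on the plus strand, with the match in capitals, for Foxp3 at chrX:7580233-7580482 and for Tnfrsf18 at chr4:156026072-156026321.
Foxp3: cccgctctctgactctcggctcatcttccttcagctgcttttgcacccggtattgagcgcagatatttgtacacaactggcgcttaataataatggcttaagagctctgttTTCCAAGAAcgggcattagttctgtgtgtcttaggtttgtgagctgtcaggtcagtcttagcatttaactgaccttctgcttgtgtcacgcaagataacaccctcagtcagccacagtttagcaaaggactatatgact
Tnfrsf18: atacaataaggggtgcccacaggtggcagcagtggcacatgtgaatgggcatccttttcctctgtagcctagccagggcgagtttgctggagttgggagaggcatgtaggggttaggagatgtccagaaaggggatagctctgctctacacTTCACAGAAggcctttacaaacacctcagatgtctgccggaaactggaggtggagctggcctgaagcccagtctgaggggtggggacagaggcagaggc
The match began 139 bases before this Foxp3 start and 99 bases before the Tnfrsf18 start. A second Foxp3 promoter in the table, chrX:7579426-7579675, held 0 matches. The motif was present in 7.02% of all 32851 promoters and in 6.87% of the promoters of genes higher in Pers2, so the higher genes held it at the share of promoters in general. Likewise, a forkhead motif, TGTTTAC, was in 3.17% of all promoters and 3.11% of those of higher genes.

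Treg identity genes were higher in Pers2, in a list chosen with earlier results of these data known. Of 25 tested, 16 rose (64%, against 6.02% of all genes) and 0 fell by limma (19 higher and 1 lower at an unadjusted p under 0.05), with a median log2 difference of 0.38 against 0.00 for all tested genes. Leaving out 1 library left 13 to 15 called. Itgae, the CD103 integrin chain that binds E-cadherin, was 14.21, 14.18 and 14.15 in Pers1 and 15.10, 15.08 and 15.17 in Pers2, a rise of 0.94 ± 0.08 (SE; adjusted p = 3.4e-07). Klrg1, an inhibitory lectin receptor of terminally differentiated lymphocytes, went from 9.19, 9.08 and 9.40 to 10.06, 10.08 and 10.34 (0.94 ± 0.11). For both genes, named for their small adjusted p, every Pers2 library lay above every Pers1 library, as for 16.8% of all tested genes.

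Genes of the interleukin-2 axis were among those that rose. Il2ra, the high-affinity interleukin-2 receptor chain CD25, was 13.72, 13.75 and 13.91 in Pers1 and 14.42, 14.36 and 14.54 in Pers2 (0.65 ± 0.10). Cish rose by 0.75 ± 0.09 and Socs2 by 0.76 ± 0.09, from 10.40, 10.41 and 10.58 to 11.13, 11.21 and 11.32. The partner chains did not pass the test: Il2rb differed by 0.16 and Il2rg by 0.05, and Stat5a and Stat5b by 0.05 and 0.08. Among 25 receptors of the common gamma chain, STAT and SOCS genes, 9 rose and 1, Stat6, fell, although only 4 or 5 were called higher without Pers1 pool 2, Pers1 pool 3, Pers2 pool 1 or Pers2 pool 2. Il7r, the interleukin-7 receptor, was the largest of these, from 10.80, 10.78 and 11.04 to 11.62, 11.63 and 12.04 (0.89 ± 0.11, adjusted p = 2.2e-05).

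Further identity genes were also called higher. Ecm1, an extracellular matrix protein, rose by 0.79 ± 0.08, Ikzf4 (the zinc finger factor Eos) by 0.70 ± 0.09, Lrrc32 (GARP, which holds latent TGF-beta on the Treg surface) by 0.63 ± 0.12, and Ikzf2 (Helios) by 0.37 ± 0.08. Tnfrsf18, the costimulatory receptor GITR, was 12.40, 12.28 and 12.36 in Pers1 and 12.93 or higher in each Pers2 pool, a rise of 0.62 ± 0.07. Ctla4, a coinhibitory receptor central to Treg function, had a difference of 0.21 and was not called, nor were Nrp1 (0.01), Gpr83 (0.27) and Runx1 (−0.13). The identity list was therefore higher in most but not all of its members.

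Effector and tissue Treg genes showed the highest list median, 0.57, with 13 of 23 higher and 2 lower. Penk (chr4:4133531-4138819), which encodes the enkephalin precursor, was 8.97, 8.81 and 8.93 in Pers1 and 10.55, 10.47 and 10.69 in Pers2. Its rise of 1.67 ± 0.12 (adjusted p = 6.9e-08) was the highest log2 difference of any tested gene. Lack of overlap between groups was a condition for naming it among the largest rises, and held upwards for 16.8% of all tested genes. Areg, a growth factor of tissue repair, went from 6.95, 6.51 and 6.64 to 7.73, 7.34 and 7.67 (0.88 ± 0.14), and Il1rl1, the interleukin-33 receptor ST2, from a mean of 11.19 ± 0.11 to 11.79 ± 0.18 (SD, n = 3), a rise of 0.61 ± 0.12 (SE). Both are features of Treg that reside in tissues.

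Against this direction, Irf4, a transcription factor of effector Treg differentiation induced by antigen receptor signalling, fell. Its values were 13.64, 13.50 and 13.59 in Pers1 and averaged 12.91 ± 0.10 (SD, n = 3) in Pers2, a difference of −0.67 ± 0.12 (adjusted p = 0.0013). Pparg, a nuclear receptor of adipose-tissue Treg, differed by −0.34 at low values, about 4.0 in Pers1 and 3.7 in Pers2, and lost its call without Pers1 pool 3 or Pers2 pool 1. Icos (0.22), Batf (0.18), Prdm1 (0.17) and Gata3 (−0.05) were not called.

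Suppressive mediators rose in 9 of 17 cases. Ebi3, a subunit of interleukin-35 and interleukin-27, rose from 9.19, 8.95 and 9.14 to 10.02, 9.95 and 9.82, and Fgl2, a secreted fibrinogen-like suppressor, from 10.16, 10.40 and 10.16 to 11.07, 11.04 and 11.27. Itgb8, which activates latent TGF-beta, was 7.47, 7.56 and 7.40 against 8.26, 8.29 and 8.27. Gzmb (granzyme B) rose by 0.68 ± 0.17 and Il10, the suppressive cytokine, by 0.62 ± 0.18. Lgals1, which encodes galectin-1, was the exception: it fell from 14.40, 14.24 and 14.39 to 13.82, 13.66 and 13.88 (−0.56 ± 0.06, adjusted p = 4.1e-06). Several genes stand on more than one of these lists, so the list counts are not independent of each other.

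**Figure D2:**
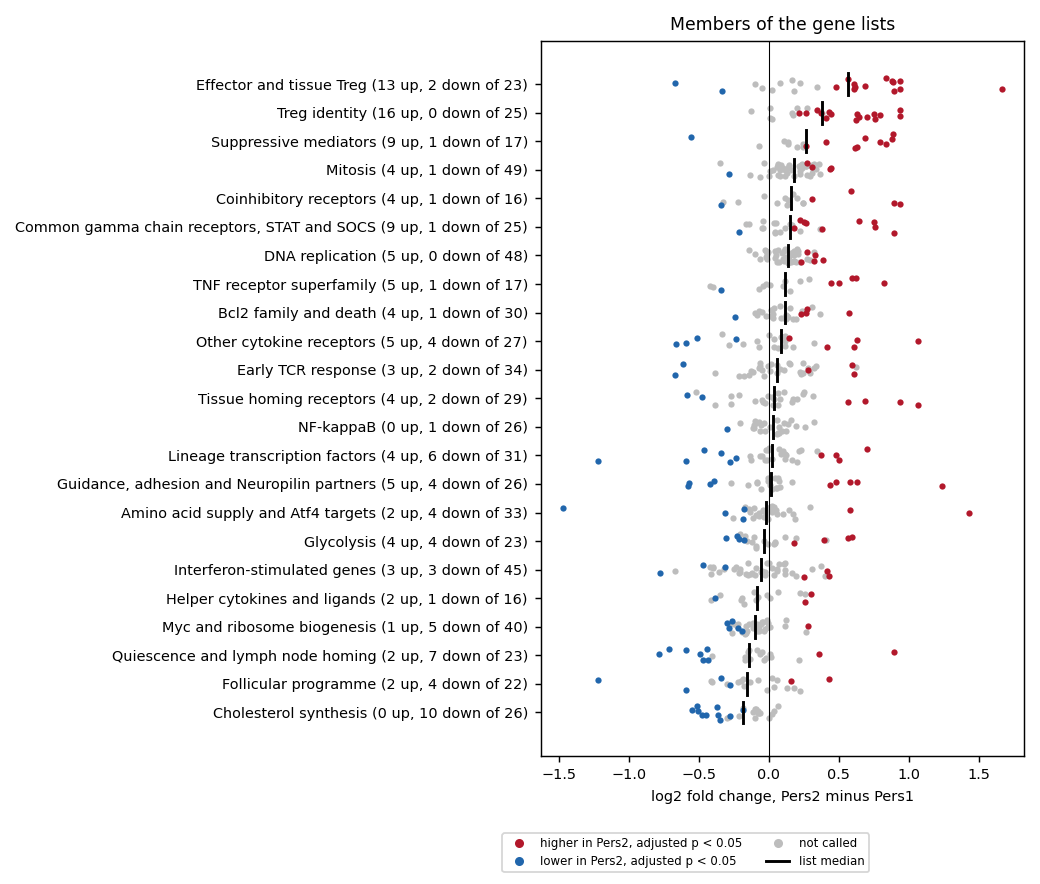
Log2 fold change of Pers2 over Pers1 (horizontal axis) for every tested member of 23 gene lists (vertical axis, ordered by list median, with the number called in each direction). Treg lists lie farthest to the right, with medians of 0.57 and 0.38, and cholesterol synthesis farthest to the left at −0.18.

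Among TNF receptor superfamily members, which transmit costimulation, 5 of 17 rose and 1 fell. Tnfrsf1b (TNFR2), a receptor through which TNF expands Treg, was 14.62, 14.62 and 14.60 in Pers1 and 15.14, 15.12 and 15.09 in Pers2. Tnfrsf8 (CD30) rose by 0.82 ± 0.13, Tnfrsf9 (4-1BB) by 0.59 ± 0.11 and Tnfrsf4 (OX40) by 0.45 ± 0.08. Tnfrsf26 fell by 0.34, and with the pool as a block 3 members were lower. Of 16 coinhibitory receptors 4 rose, with Tigit going from 12.74, 12.65 and 12.73 to 13.63, 13.53 and 13.65, while Pdcd1 (0.06) and Lag3 (0.24) were not called and Btla fell by 0.34. Havcr2 (TIM-3), at 0.59 ± 0.15, lost its call without Pers1 pool 1 or 3 or Pers2 pool 1 or 3, with differences between 0.52 and 0.68, and 2 coinhibitory receptors were called higher without Pers1 pool 1, Pers1 pool 3 or Pers2 pool 1.

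Receptors for other cytokines moved both ways, 5 higher and 4 lower of 27. Il1r2, the decoy receptor for interleukin-1 (chr1:40074079-40125231), went from 10.60, 10.44 and 10.61 to 11.73, 11.46 and 11.67, a rise of 1.07 ± 0.10 (adjusted p = 1.4e-06). Its signalling counterpart Il1r1 had a difference of −0.29 and was not called. Tgfbr1 rose by 0.63 ± 0.07, while Tgfbr3, the TGF-beta co-receptor betaglycan, fell by 0.51 from 8.72, 8.27 and 8.31 to 7.97, 8.03 and 7.76. Csf1r and Csf2rb, receptors typical of myeloid cells, fell by 0.59 and 0.66 from values of 5.08 or lower. Csf1r lost its call without pool 1 or 2 of either population, with differences between −0.75 and −0.48.

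Chemokine receptors and integrins of tissue homing gave 4 higher and 2 lower of 29 (13.8% and 6.90%, against 6.02% and 4.56% of all tested genes). Ccr6, which guides lymphocytes to epithelial surfaces, was 8.94, 8.73 and 8.65 in Pers1 and 9.81, 9.81 and 9.90 in Pers2 (1.07 ± 0.11). Ccr8, a receptor of skin and tissue Treg, rose by 0.57 ± 0.12 and the lysophospholipid receptor Gpr55 by 0.69 ± 0.11. The integrin chains Itga4 and Itgb1, which pair as VLA-4, both fell. Itga4 went from 11.74, 11.87 and 11.65 to 10.94, 11.36 and 11.21, and Itgb1 from 15.59, 15.65 and 15.67 to 15.12, 15.09 and 15.25. With the pool as a block, 4 genes of this list were lower instead of 2.

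Genes of resting cells and lymph node homing were lower in 7 of 23 cases and higher in 2, Il7r and Btg1. S1pr1, the receptor for egress from lymph nodes, fell from 13.68, 13.57 and 13.73 to 13.19, 13.17 and 13.33. Ly6c1 fell by 0.78 and its near-identical neighbour Ly6c2, which is on no list, by 0.77, and reads of these copies may have been split between them. With the pool as a block, 11 genes were lower. Ccr7 (−0.09), Lef1 (−0.13), Klf2 (−0.40), Foxo1 (−0.02) and Bach2 (−0.06) were not called.

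Transcription factors of T cell lineages split, 4 higher and 6 lower of 31 (12.9% and 19.4%, against 6.02% and 4.56% of all tested genes). Beside Ikzf2 and Ikzf4, Ahr (the aryl hydrocarbon receptor) rose by 0.50 ± 0.11 and Rora by 0.48 ± 0.10. Tcf7, the TCF-1 factor of naive, memory and follicular T cells, was 13.74, 13.70 and 13.68 in Pers1 and at most 13.25 in Pers2, with a mean of 13.11 ± 0.13 (SD) there (difference −0.59 ± 0.05, adjusted p = 3.4e-07). Tbx21, the Th1 factor T-bet, fell by 0.47 ± 0.14, and Id3 by 0.34 ± 0.09. Without Pers1 pool 3, Pers2 pool 1 or Pers2 pool 3, 3 factors remained called lower.

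Pou2af1, the OCA-B coactivator that works with octamer-binding factors in B cells and follicular helper T cells (chr9:51213708-51240080), fell most among the factors. It was 9.25, 9.22 and 9.48 in Pers1 and 8.15, 8.19 and 7.96 in Pers2 (−1.22 ± 0.10, adjusted p = 1.3e-07). Its promoter, chr9:51213440-51213689 on GRCm38.p6 by RefSeq, plus strand, is shown because it holds an octamer motif, TGCAAAT, in capitals.
Pou2af1: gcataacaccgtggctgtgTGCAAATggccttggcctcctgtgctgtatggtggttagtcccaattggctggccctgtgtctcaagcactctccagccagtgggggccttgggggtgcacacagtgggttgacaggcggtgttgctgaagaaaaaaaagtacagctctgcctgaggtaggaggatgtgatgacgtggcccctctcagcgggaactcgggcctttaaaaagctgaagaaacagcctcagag
The motif lay 231 bases before the start and was found in 3.56% of all promoters, on either strand, and in 2.90% of the promoters of lower genes. In the follicular programme as a whole, 4 of 22 genes fell (Pou2af1, Tcf7, Btla and Bcl6) and 2 rose, and with the pool as a block 7 fell. Bcl6, the follicular lineage factor, differed by only −0.28 ± 0.09 and was called in 1 of the 6 fits that left out a library. Of 14 B cell markers 0 were called in either direction by limma (0 higher and 3 lower at an unadjusted p under 0.05), and their summed linear level was 3167 to 3591 in Pers1 and 3048 to 3498 in Pers2.

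Genes of the early response to antigen receptor signalling did not move as a group, with 3 higher and 2 lower of 34 and a median of 0.06. The shares were 8.82% and 5.88%, against 6.02% and 4.56% of all tested genes. Egr3, a signal-induced transcription factor, fell from 11.53, 11.50 and 11.51 to 10.93, 10.81 and 10.97, with Irf4 as the other lower gene. Cd83 and Tnfrsf9 rose, and Myc rose by 0.28 ± 0.07, a call lost without Pers1 pool 2 at a difference of 0.20. Nr4a1, the usual reporter gene of receptor signal strength, had a difference of 0.15, Egr2 one of −0.14 and Cd69 one of −0.06, and Nr4a2 had 0.62, none of them called. With the pool as a block, 8 genes were higher and 4 lower. NF-kappaB pathway genes gave 0 higher and 1 lower of 26 by limma (4 and 4 at an unadjusted p under 0.05).

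Cholesterol synthesis was the list with the lowest median, −0.18, with 0 higher by limma (also 0 at an unadjusted p under 0.05): 10 of 26 fell (38.5%, against 4.56% of all genes), and 23 of 26 differences were below 0. Leaving out 1 library left 8 to 11 called. Hmgcs1, the HMG-CoA synthase that feeds the pathway, was 10.88, 10.91 and 11.06 in Pers1 and 10.40, 10.29 and 10.53 in Pers2 (−0.55 ± 0.09, adjusted p = 0.00034). Sqle, squalene epoxidase, went from 9.91, 9.89 and 10.02 to 9.41, 9.40 and 9.49, and Lss, which closes the sterol ring system, from 9.45, 9.39 and 9.55 to 9.03, 9.03 and 8.97. Groups were fully apart for these 3 genes, which were named for the smallest adjusted p in the list. The same lack of overlap, lower in Pers2, held for 15% of all tested genes.

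The calls ran along the pathway, from Hmgcs1 through Pmvk (−0.36) and Fdps (−0.35) to Cyp51 (−0.48). Srebf2, the SREBP-2 factor that activates these genes, fell by 0.28. The Hmgcs1 promoter, chr13:119690101-119690350 on GRCm38.p6 by RefSeq, plus strand, is shown with a match to the sterol regulatory element core CACCCCAC in capitals, a motif chosen after the values were seen.
Hmgcs1: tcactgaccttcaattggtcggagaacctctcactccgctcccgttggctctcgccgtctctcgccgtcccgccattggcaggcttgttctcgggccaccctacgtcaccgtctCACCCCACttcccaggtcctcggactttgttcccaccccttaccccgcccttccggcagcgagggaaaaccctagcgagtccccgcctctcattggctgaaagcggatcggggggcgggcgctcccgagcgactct
The match began 136 bases before the start. Of 18 cholesterol genes with a promoter in the table, Hmgcs1 and Acat2 held it, 2 of the list's 23 promoters (8.70%). Acat2 had a difference of 0.07 and was not called. The motif was in 2.58% of all promoters, 3.24% of those of lower genes and 4.02% of those of higher genes.

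Glycolysis was divided between isoforms, 4 higher and 4 lower of 23. Ldha fell from 14.92, 14.85 and 14.95 to 14.67, 14.54 and 14.58, and Aldoa by 0.23 ± 0.05, while Ldhb rose by 0.40 ± 0.08 and Aldoc by 0.60 ± 0.14. These pairs encode alternative subunits of lactate dehydrogenase and aldolase. Gapdh (−0.10), Pkm (0.05) and Hk2 (0.20) were not called.

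Amino acid genes had a list median of −0.02 but included large differences in both directions. Slc7a10, a transporter of small neutral amino acids (chr7:35186385-35201114), was 6.22, 6.15 and 5.88 in Pers1 and 7.53, 7.51 and 7.50 in Pers2, a rise of 1.43 ± 0.14 (adjusted p = 1.4e-06). Ggt1, the gamma-glutamyltransferase that breaks down extracellular glutathione (chr10:75561604-75586200), was 7.73, 7.75 and 7.83 in Pers1 and 6.46, 6.17 and 6.25 in Pers2. At −1.47 ± 0.12 (adjusted p = 2.5e-07) Ggt1 had the lowest log2 difference of all tested genes. In the whole list, 2 of 33 rose and 4 fell, and lower calls numbered 1 without Pers1 pool 1, Pers2 pool 2 or Pers2 pool 3 and 2 without Pers1 pool 2 or 3. With the pool as a block 6 were lower, and Atf4 itself had a difference of −0.13.

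Cell cycle genes leaned upwards by small amounts. Of 48 DNA replication genes 39 had differences above 0, with a median of 0.14, 5 called higher and 0 lower by limma (16 and 0 at an unadjusted p under 0.05), and of 49 mitosis genes 43 were above 0, with a median of 0.18, 4 called higher and 1, Cdc25b, lower. Prc1, a spindle midzone protein, rose by 0.45 ± 0.09, from 11.16, 11.14 and 11.28 to 11.63, 11.47 and 11.82. Mki67, the usual proliferation marker, had a difference of 0.03, and Pcna 0.05. The number called rested on the libraries and the fit: no replication gene was called without Pers1 pool 3 or without Pers2 pool 1, 2 without Pers1 pool 1, and 2 mitosis genes were called higher without Pers1 pool 1 or Pers2 pool 1, whereas 9 replication and 8 mitosis genes were higher with the pool as a block. Ribosome biogenesis genes leaned down, with a median of −0.10, 35 of 40 below 0 and 5 lower. Of these 1 remained lower without Pers1 pool 1, 2 without Pers2 pool 2 and 3 without Pers1 pool 3, against 10 with the pool as a block and 11 with libraries centred on their medians.

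Remaining lists gave few calls. Interferon-stimulated genes had 3 higher and 3 lower of 45, 6.67% each way, near the 6.02% and 4.56% of all tested genes. The higher ones were all guanylate-binding proteins (Gbp5 at 0.43, Gbp7 at 0.41 and Gbp3 at 0.25), and the lower ones were Oas3, Irf7 and Bst2. Oas3, an antiviral oligoadenylate synthetase, fell from 11.25, 11.45 and 11.62 to 10.45, 10.69 and 10.83. With the pool as a block 6 were higher and 13 lower, lower calls numbered 1 without Pers1 pool 3 or Pers2 pool 1, and higher calls 1 without Pers1 pool 1 or Pers2 pool 3. Helper cytokines and ligands gave Ltb and Lta higher and Cd40lg (−0.38 ± 0.09) lower of 16, with neither lymphotoxin gene called without Pers1 pool 2 or Pers2 pool 2. In the Bcl2 family and death list, 4 of 30 rose, among them the survival gene Bcl2l1 (0.28 ± 0.06) and the death genes Bbc3 and Bcl2l11, and the death effector Bak1 fell by 0.24, with 2 higher without Pers1 pool 3, Pers2 pool 1 or Pers2 pool 2. Bbc3 lost its call in 5 of the 6 fits that left out a library, and Bcl2l11 and Bak1 in 4 each. Bcl2l1 and Birc2, also called higher, lost theirs in 0.

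Guidance and adhesion molecules split 5 higher and 4 lower of 26 (19.2% and 15.4%, against 6.02% and 4.56% of all tested genes). Sdc4, the proteoglycan syndecan-4, went from 6.30, 6.13 and 6.95 to 7.46, 7.78 and 7.84 (1.24 ± 0.17). Plxnd1, a semaphorin receptor, rose by 0.63 ± 0.09 and the ligands Sema4a and Sema4f fell by 0.57 and 0.39. The tetraspanins Cd81 and Cd9 moved apart, Cd81 rising by 0.58 ± 0.09 and Cd9 falling by 0.58 ± 0.07.

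Outside the lists, several of the largest rises were in genes of other tissues. Dnah7a, an axonemal dynein heavy chain (chr1:53397006-53706784), was 6.45, 6.46 and 6.45 in Pers1 and between 7.84 and 8.14 in Pers2. It has near-identical copies in the genome, so its reads are uncertain. Ttn and Neb, which encode the giant muscle proteins titin and nebulin, rose by 1.36 ± 0.12 and 1.16 ± 0.12. Neb was 12.44, 12.51 and 12.22 in Pers1 and 13.50, 13.50 and 13.64 in Pers2. Sspo (SCO-spondin, 1.41 ± 0.15) and Dscam (a neuronal adhesion molecule, 1.33 ± 0.15) also rose.

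Long transcripts were frequent among these. Of the 19 genes past the fold threshold upwards, 6 had a longest transcript over 10 kb. The median of the 19 was nevertheless 3.175 kb, against 3.241 kb for all genes with a length. Of 12682 genes with a length, 286 were over 10 kb. Among these 286, 48 were higher and 6 lower, against 6.02% higher and 4.56% lower of all tested genes. With genes divided by length into 5 equal bins, 9.46% of those in the longest bin, from 5.105 kb, were higher and 3.43% lower. In the shortest bin, up to 1.836 kb, 3.47% were higher and 4.02% lower. Across 12682 genes with a length, the log2 difference had a Spearman correlation of 0.123 with transcript length (no p, since genes are not replicates). Length was examined after the values were seen, and its part in the differences was not tested.

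Mmp9, the secreted gelatinase (chr2:164940780-164955850), was 7.79, 7.97 and 7.75 in Pers1 and 8.99, 9.21 and 8.94 in Pers2 (1.21 ± 0.15). Atp6v0d2, a proton pump subunit, rose by 1.23 ± 0.13, Ptpn5, a tyrosine phosphatase, by 1.15 ± 0.16, and Dgat2, which forms triglycerides, by 1.07 ± 0.10. Epcam, the epithelial adhesion molecule, went from 7.81, 7.63 and 7.59 to 9.05, 8.79 and 8.86. Of 6 epithelial markers tested Epcam alone was called. The list's summed linear level was 287 to 317 in Pers1 and 561 to 638 in Pers2, most of it Epcam itself in every library. Cdh1 had a difference of 0.02, and Krt5, Krt14 and Krt8 were not analysed here.

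Nav2 (1.05), Lama5 (1.05), Rec8 (1.03) and Kcnj15 (1.01) complete the 19 higher genes and were below the 15 with the largest rises. Anxa2, a calcium-dependent membrane-binding protein (chr9:69453620-69491795), fell from 13.51, 13.48 and 13.66 to 12.44, 12.37 and 12.48 (−1.12 ± 0.10, adjusted p = 7.7e-07). Pdlim4, an actin-associated protein, fell from 6.92, 6.77 and 7.24 to 5.70, 5.38 and 5.66, and Emp1, a membrane protein, from 8.86, 8.96 and 9.02 to 7.84, 7.80 and 7.95. The uncharacterised 1500009L16Rik fell by 1.13 ± 0.18. That no Pers2 library reached a Pers1 library was a condition for naming these lower genes, and held for 15% of all tested genes.

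**Figure D3:**
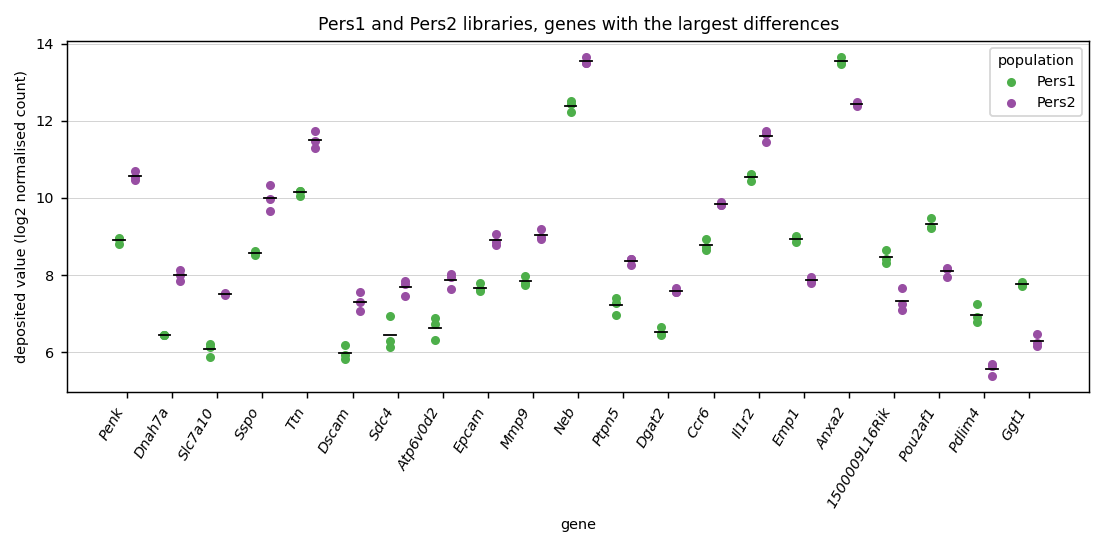
Deposited log2 normalised count (vertical axis) of each Pers1 (green) and Pers2 (purple) library for the 21 genes with the largest differences, with a bar at the mean of 3 libraries. The genes run from Penk (1.67) to Ggt1 (−1.47). Lack of overlap between the groups was a condition for choosing them, and held for 31.9% of all tested genes.

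Markers of the sorted cells were at close levels in both populations: Cd4 was 14.76, 14.74 and 14.77 in Pers1 and 14.68, 14.75 and 14.71 in Pers2. Of 12 T cell genes 2, Cd3g and Cd2, were higher, by 0.21 and 0.20. Some markers of myeloid cells were called lower. In the macrophage and monocyte list 0 of 11 were higher by limma (also 0 at an unadjusted p under 0.05) and 3 lower (Csf1r, Itgam and Fcer1g), and the list's summed linear level was 1041 to 1150 in Pers1 and 702 to 767 in Pers2, with Cd14 and Mrc1 under a log2 value of 1. Among 14 conventional dendritic cell genes, 5 were lower (H2-Aa, H2-Ab1, H2-Eb1, Flt3 and Fscn1) and Cd74 was higher, and 12 differences were below 0. The sums were 7438 to 8567 in Pers1 and 8416 to 9165 in Pers2. Most of each sum was Cd74 itself, at 12.29, 12.31 and 12.45 in Pers1 and 12.76, 12.81 and 12.69 in Pers2, so the sums mainly followed that gene. Of 12 plasmacytoid dendritic cell genes, Siglech and Bst2 were lower, and 9 differences were below 0. The summed level of this list was nevertheless 9460 to 10386 in Pers1 and 10638 to 11234.5 in Pers2. Runx2 (0.20), Lag3 (0.24) and Pacsin1 (0.26) had differences above 0 and were not called. The part of these markers in the lower values of Csf1r, Csf2rb, Anxa2, Lgals1 and Emp1 was not tested.

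Set among the 6 populations, the differing genes fell into several arrangements. More genes were called in 3 comparisons of Pers1 or Pers2 with other populations than between Pers2 and Pers1: 54.2% of tested genes were called between Pers1 and Teff, 53.9% between Pers2 and Teff and 60% between Pers2 and PAt. Itgae and Klrg1 were highest in Pers2 and next in Pers1: Itgae had means of 15.12 ± 0.05 in Pers2, 14.18 ± 0.03 in Pers1, 12.87 ± 0.17 in PAt, 11.70 ± 0.09 in Arrested and 10.70 ± 0.07 in Teff (SD, n = 3). Mmp9 stood at 9.05 ± 0.14 in Pers2 and 7.84 ± 0.11 in Pers1 but at 5.96 ± 0.34 and 6.16 ± 0.27 in PAt and Arrested, which were not called apart (adjusted p = 0.54), and at 6.25 ± 0.07 in Teff. These genes were thus higher in both persistent populations than in the other Timer+ populations, and highest in Pers2.

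A different order held for Dnah7a and Ecm1, where Pers1 was lowest of the Timer+ populations and Pers2 lay between Pers1 and Arrested. Dnah7a lay between 6.45 and 6.46 in Pers1, 7.84 and 8.14 in Pers2, 8.78 and 8.84 in Arrested, and 9.93 and 10.06 in PAt. Il7r also followed this order, at 10.87 ± 0.14 in Pers1, 11.76 ± 0.24 in Pers2, 12.01 ± 0.26 in Arrested and 12.46 ± 0.12 in PAt, with 13.74 ± 0.06 in Tnaive. Pers2 and Arrested overlapped within their spread for Il7r.

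Genes lower in Pers2 included some that were high in both persistent populations. Anxa2 had 13.55 ± 0.10 in Pers1, 12.43 ± 0.06 in Pers2, 10.88 ± 0.24 in Arrested and 10.37 ± 0.11 in PAt, and Pers2 was not called apart from Teff (12.31 ± 0.02, difference 0.12, adjusted p = 0.34). Lgals1 and 1500009L16Rik had the same order of Pers1 above Pers2 above both other Timer+ populations. Ggt1, in contrast, was 7.77 ± 0.06 in Pers1, near Teff at 7.95 ± 0.11 (adjusted p = 0.21), and 6.29 ± 0.15 in Pers2, near PAt at 6.44 ± 0.20 (adjusted p = 0.32).

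**Figure D4:**
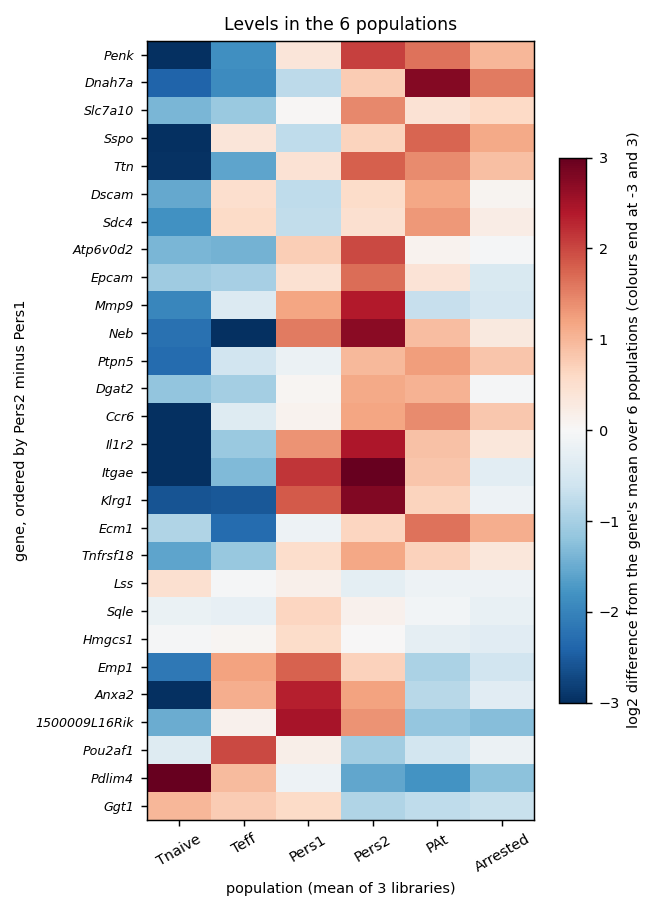
Mean of 3 libraries in each of the 6 populations (columns) for 28 genes named above (rows, ordered by the difference between Pers2 and Pers1), coloured by the log2 difference from the gene's mean over the populations, with colours ending at −3 and 3. Mmp9, Neb, Il1r2, Itgae and Klrg1 are darkest red (highest) in Pers2, Dnah7a in PAt, and 1500009L16Rik and Anxa2 in Pers1.

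PAt and Arrested form the other pair of Timer+ populations that differ in red and in blue fluorescence, and they share no library with Pers1 and Pers2. In both pairs the population with more red also had more blue fluorescence, so the 2 colours cannot be told apart. Between PAt and Arrested 665 genes were called (5.04%), 392 higher (2.97%) and 273 lower (2.07%) in PAt. Across the 13190 genes, the PAt over Arrested difference had a Pearson correlation of 0.441 and a Spearman correlation of 0.375 with the Pers2 over Pers1 difference, given as a description because genes share libraries and are not replicates. Of the 794 genes higher in Pers2, 674 (84.9%) were above 0 in PAt over Arrested, compared with 52.3% of all genes. Of the 601 lower genes, 458 (76.2%) were below 0.

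Treg identity genes were higher in both pairs, with 18 of 25 called higher and a median of 0.52 in PAt over Arrested. Dnah7a had differences of 1.54 and 1.18, Dgat2 of 1.07 and 1.07, and Il2ra of 0.65 and 0.70. Against the mean of PAt and Arrested over Teff, 599 of the 794 higher genes (75.4%) were above 0 and 434 of the 601 lower genes (72.2%) below 0, compared with 49.2% of all genes above 0, and the Pearson correlation was 0.371. Against Teff over Tnaive, the difference of activated from naive cells, the correlation was 0.0378.

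The difference between the pairs was tested as an interaction, and 101 genes were called (0.766%), 59 (0.447%) with the larger Pers2 minus Pers1 value and 42 (0.318%) with the smaller one. With the pool as a block 240 were called, and leaving out 1 library gave 37 (without Pers1 pool 3) to 67 (without Pers2 pool 3). Slc7a10, Mmp9, Atp6v0d2 and Ggt1 differed between Pers2 and Pers1 by more than 1 in size and by −0.16, −0.20, 0.15 and −0.08 between PAt and Arrested. Cholesterol synthesis behaved likewise in its counts: 0 of 26 genes were called between PAt and Arrested by limma (1 higher and 3 lower at an unadjusted p under 0.05) and the median was 0.00, and the interaction was called for Hmgcs1 and Sqle. Itga4, at 14.64 ± 0.14 in PAt and 14.53 ± 0.11 in Arrested, was also lower in Pers2 than Pers1 without such a difference in the other pair.

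**Figure D5:**
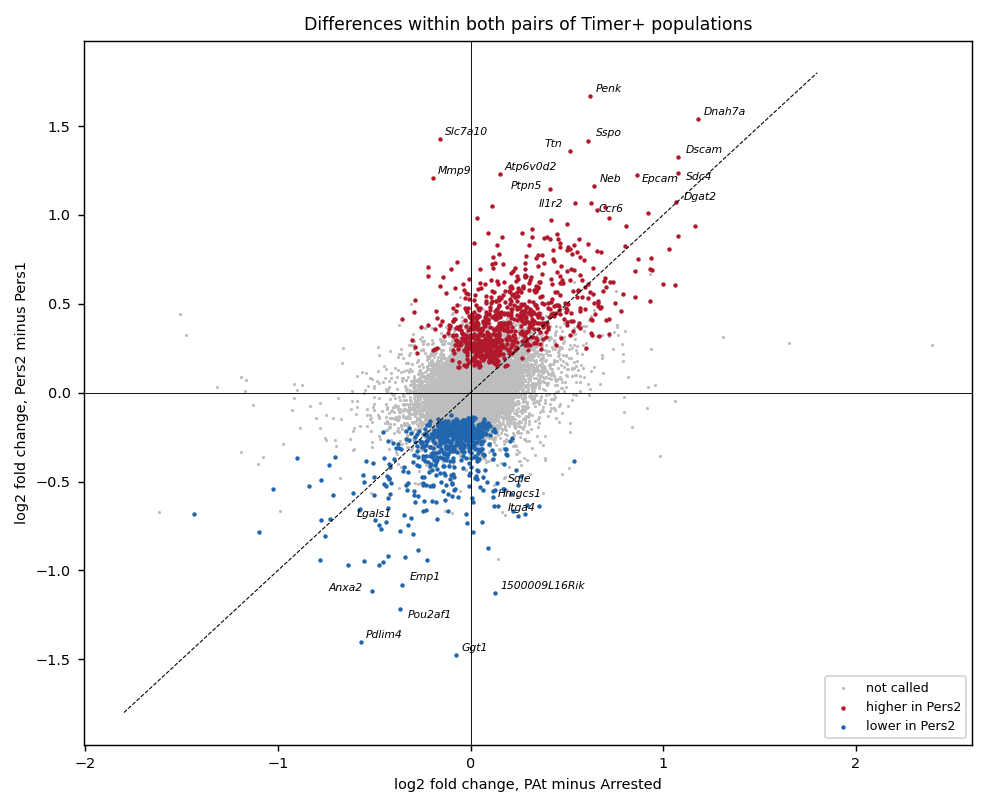
Log2 fold change of Pers2 over Pers1 (vertical axis) against that of PAt over Arrested (horizontal axis), one point per tested gene, with the line of equality dashed. Red genes were called higher and blue genes lower in Pers2. Dnah7a (1.54 and 1.18) and Dgat2 (1.07 and 1.07) lie far along the line, whereas Slc7a10, Mmp9 and Ggt1 lie near 0 on the horizontal axis.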

How the data were processed

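RNA from sorted T cells was made into stranded mRNA libraries and sequenced as 100-bp paired-end reads. Per the labels and the study's methods, the authors used CASAVA 1.8.2, FastQC 0.11.2 and TopHat2 2.0.9 against mm10, with or without the Timer sequence, and deposited log2 values of normalised read counts from DESeq2, between −0.02 and 18.89. The transform, its version and the counting tool are not given in the sources used here, and low values look shrunken.

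The deposited log2 values were fitted with limma 3.58.1 (R 4.3.3): 18 libraries, 6 populations, 12 residual degrees of freedom, a variance trend, and Benjamini-Hochberg adjustment over the 13190 genes with a mean of at least 3. The script was tested on simulated data. Columns were mapped by library title, and none was left unmapped. Members, 23 gene lists, 13 marker lists and tests were chosen with earlier results of these data known. Genes named are Foxp3, those past both thresholds without overlap (at most 15 a direction), and up to 4 members a direction of each list with the smallest adjusted p. Other list members are named for their role. Some genes that the lists and their counts hold are not reported here by name. Transcript lengths and positions came from GENCODE M21 and promoters from RefSeq (GRCm38.p6).

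Per the series' design text, the populations were sorted from each of 3 pooled biological replicates, and the number in a library's title was taken to mark its pool, which no source states outright. Deviations from population means had a median correlation of 0.166 over 45 pairs of libraries with the same number, and −0.0642 over 90 pairs with different numbers. Between Pers1 and Pers2 it was 0.268, 0.0872 and 0.228 for the 3 numbers. The study's methods name no block, the main fit had none, and the fit with the pool as a block was an alternative. Other alternatives were no or a stricter filter (mean of 6), fewer libraries, no variance trend, 2 rescalings, a test against a log2 fold change of 0.5, and leaving out each library. Without counts, no counting error could be given.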

Additional observations from a re-analysis of the deposited data

Results flagged for a closer look

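For 12 named genes the difference between Pers2 and Pers1 was not the same as that between PAt and Arrested by limma's interaction test, 5 with a value above 0 and 7 below. The values are the first difference minus the second, on the log2 scale, with 12 libraries in the contrast.

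Higher genes came first. Slc7a10, an amino acid transporter, gave 1.59 ± 0.20 (SE; adjusted p = 0.00028). Mmp9 gave 1.41 (adjusted p = 0.0019), Atp6v0d2 1.08 (adjusted p = 0.0087) and Penk 1.05 (adjusted p = 0.0053). Ttn gave 0.84 (adjusted p = 0.021). Penk and Ttn were also called higher in PAt than in Arrested, by 0.62 and 0.52, so for these 2 genes the differences had one direction and unequal size.

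Among lower genes, Ggt1 gave −1.40 ± 0.17 (adjusted p = 0.00028), 1500009L16Rik −1.25 (adjusted p = 0.021) and Pou2af1 −0.85 (adjusted p = 0.0030). The integrin chain Itga4 gave −0.70 (adjusted p = 0.015) and Lgals1 −0.41 (adjusted p = 0.021). The cholesterol genes Sqle and Hmgcs1 gave −0.65 (adjusted p = 0.024) and −0.61 (adjusted p = 0.022). Of the 7 lower genes, Pou2af1 alone was also called lower in PAt than in Arrested, at −0.37.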

How the results depend on the processing

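The count past both thresholds, 25, ranged from 22 to 32 over the alternatives, apart from 20 for the test against 0.5. The count past adjusted p alone, 1395, was 2600 with a replicate block in the 6 Pers1 and Pers2 libraries and 1877 with the block in 18 libraries. It was 741 to 1008 when 1 library was left out, with 883 without Pers1 pool 1, 741 without Pers1 pool 3 and 851 without Pers2 pool 2. The interaction count, 101, was 240 with the replicate block, 61 without a variance trend, and 37 to 67 without 1 library. The cause was not tested. For the 122 named genes, 1669 alternative values kept their direction and side of the threshold, 155 kept direction but lost the call, and 0 reversed. Apart from Foxp3, these genes were chosen for calls in the same libraries, which the alternatives reuse. Their kept directions are therefore no independent check. The replicate block lost no named call. The median of all genes moved by at most 0.02 under rescaling. Depth is unknown, so precision rests on the spread of 3 pools.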
